A study of Mus musculus with 12 samples.

Results

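Immediate early response genes are switched on within minutes of a stimulus, without new protein synthesis, because their promoters carry sites for factors that are already in the nucleus and wait for a signal from MAP kinases, calcium or cyclic AMP. Most encode short-lived transcription factors, and others encode proteins that shut the signal off again. In heart they respond to stretch, ischaemia and catecholamines, and also to the handling and dissection of the animal. The 10 genes described here are the AP-1 subunit genes Fos, Jun and Junb, the related stress factor gene Atf3, the transcription factor genes Egr1, Nr4a1 and Myc, and Ier2, Ier3 and Dusp1. They were chosen by name, as probe sets annotated to a single gene among these 10. All 10 were found among the 12394 genes on the array, with 11 of its 22690 probe sets. Jun had 2 probe sets (1417409_at and 1448694_at, the first the brighter) and each other gene had 1.

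Total RNA of mouse hearts was hybridised to 12 Affymetrix arrays, 3 for each of 4 groups. These were mdx hearts at 10.5 months, control hearts at 10.5 months, mdx hearts at 8 weeks and control hearts at 8 weeks. The mdx mouse lacks dystrophin through a mutation of the Dmd gene and models Duchenne muscular dystrophy. The labels give neither the strain nor the sex of the animals, nor how they were killed or at what time of day, nor whether replicates are separate animals, so p-values measure only the spread between these samples. Values below are scaled signals, in which each array has a trimmed mean of 500, and differences are log2 differences of (signal + 32). The labels do not say which parts of the heart were taken, and in tissue RNA fewer cells of a type and less RNA per cell cannot be told apart.

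The labels name heart as the source but also carry the keyword extraocular muscle. The ventricular light chain gene Myl2 had signals of at least 20056 on every array, while all 7 fast skeletal muscle markers and the embryonic myosin gene Myh3 lay below the filter on signal. Dmd was lower on each mdx array, at 264, 286 and 195 in mdx hearts against 839, 839 and 796 in control hearts at 10.5 months, and at 264, 279 and 159 in mdx hearts against 607, 780.3 and 623 in control hearts at 8 weeks. A wide signal range set 4 arrays apart (99th percentile of deposited signal at least 40770, against at most 32810 on the others). They were mdx replicate 3 at 10.5 months, mdx replicates 1 and 2 at 8 weeks and control replicate 2 at 8 weeks.

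Several of these genes are known to respond through a cyclic AMP response element (CRE), bound by CREB and ATF factors, in the promoter. RefSeq promoter sequences (build GRCm38.p6) were at hand for 7 of the 10 genes, and their 250 bases upstream of the start were searched on both strands for the CRE core TGACG. It was found in 5 of the 7 (Atf3, Junb, Fos, Nr4a1 and Dusp1), against 17.8% of 32851 promoter windows. The 3 promoters with more than 1 copy are shown, with the core in capitals, as TGACG or, on the opposite strand, as CGTCA. The Fos window is chr12:85473640-85473889 on the plus strand, with cores at -129 and -66 from the start. The Nr4a1 window is chr15:101266596-101266845 on the plus strand, upstream of a start inside the annotated gene. The Dusp1 window is chr17:26508473-26508722 on the minus strand.
Fos: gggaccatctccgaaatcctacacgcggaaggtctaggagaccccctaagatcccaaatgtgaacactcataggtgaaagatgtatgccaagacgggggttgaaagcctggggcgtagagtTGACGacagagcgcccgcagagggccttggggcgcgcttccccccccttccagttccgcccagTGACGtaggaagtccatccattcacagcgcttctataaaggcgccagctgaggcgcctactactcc
Nr4a1: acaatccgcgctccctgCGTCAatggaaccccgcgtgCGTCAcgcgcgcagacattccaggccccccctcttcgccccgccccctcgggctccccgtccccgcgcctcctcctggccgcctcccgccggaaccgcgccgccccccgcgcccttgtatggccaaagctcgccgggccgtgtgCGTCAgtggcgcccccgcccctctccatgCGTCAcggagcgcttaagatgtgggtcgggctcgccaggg
Dusp1: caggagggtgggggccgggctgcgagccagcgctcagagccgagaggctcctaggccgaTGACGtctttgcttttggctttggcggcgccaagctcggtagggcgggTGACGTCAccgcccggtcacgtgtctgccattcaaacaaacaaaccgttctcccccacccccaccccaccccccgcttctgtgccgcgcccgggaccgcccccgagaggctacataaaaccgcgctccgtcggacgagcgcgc
Nr4a1 holds 4 copies. Dusp1 holds 3, of which the copies at -143 and -140 overlap in a complete palindromic CRE, TGACGTCA, which 1.5% of all windows hold. The AP-1 site TGANTCA, which 6.7% of all windows hold, was not found in these 7 windows, nor was the CArG box of serum response factor, which 1.5% hold. A match is a sequence description and not a measured site, and these letters may lie elsewhere.

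None of the 9 tested member probe sets differed between mdx and control hearts past the threshold at either age. The tested 9, for 8 genes, were those with a mean signal of at least 100 over the 12 arrays. Atf3 and Myc lay below that (means of 85.3 and 77.5, against 151 for Fos, the dimmest member above it) and are given from a fit without the filter. The test was limma over all 14932 tested probe sets with Benjamini-Hochberg adjustment, called at an adjusted p below 0.05. At 10.5 months 0 of 9 member probe sets were called, against 0.0469% of all tested probe sets, and 2 member probe sets had an unadjusted p below 0.05 (7.37% of all). At 8 weeks 0 of 9 were called, against 2.3% of all, and 3 had an unadjusted p below 0.05 (17.8% of all). The median difference of the 8 tested genes was 0.13 at 10.5 months and -0.20 at 8 weeks, beside -0.02 and -0.01 over all tested genes. In the difference between the mdx effects at the 2 ages 0 of 9 were called, against 0.154% of all. The nearest was Ier2 (10.5 months minus 8 weeks, 0.63 ± 0.23, adjusted p = 0.292).

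**Figure D1:**
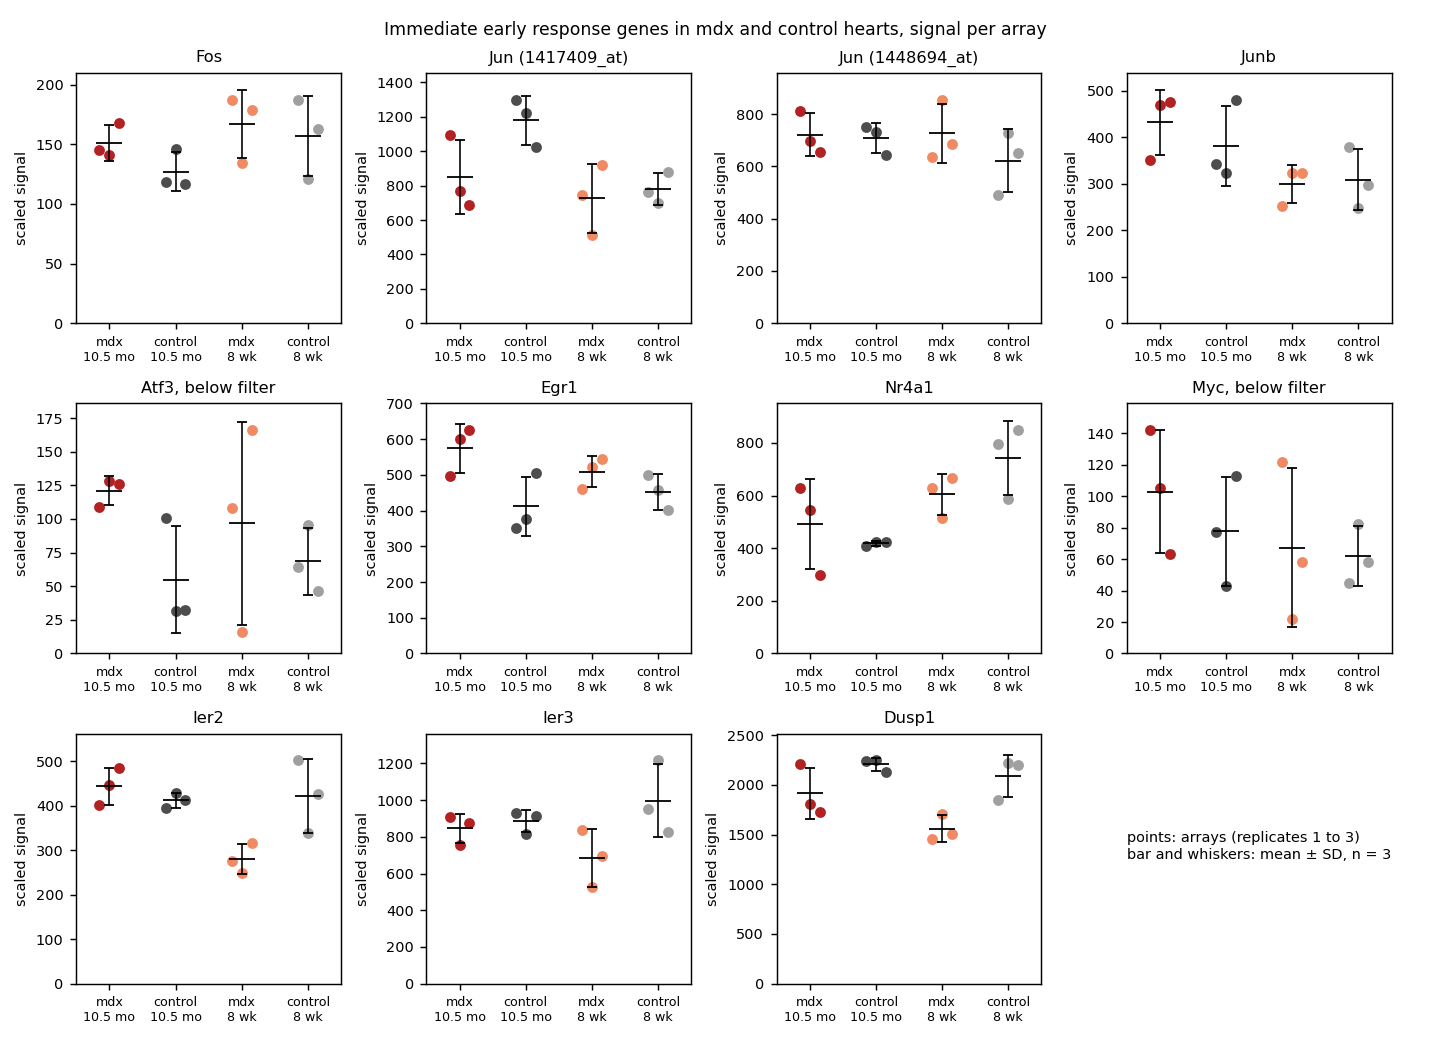
Scaled signal (linear axis from 0) of each member probe set on every array, by group, with the mean and SD of 3 arrays. The 3 mdx arrays at 8 weeks are the lowest of the 12 for Ier2 and Dusp1, while Fos, Junb and Egr1 signals of mdx and control hearts overlap at both ages.

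Fos, the partner of Jun proteins in AP-1, varied little. At 10.5 months its signal was 145, 141 and 168 in mdx hearts, against 118, 146 and 117 in control hearts. At 8 weeks it was 187, 134 and 179 in mdx hearts, against 187, 121 and 163 in control hearts. The groups overlapped at both ages. The differences were 0.20 ± 0.17 at 10.5 months (95% interval -0.17 to 0.58, adjusted p = 0.833) and 0.08 ± 0.17 at 8 weeks (-0.29 to 0.45, adjusted p = 0.857).

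Jun, which forms AP-1 alone or with Fos, had 2 probe sets that did not move together. On the brighter one the signal at 10.5 months was 1093, 767 and 689 in mdx hearts, against 1297, 1222 and 1022 in control hearts. Mdx replicate 1 lay above the lowest control array, so the groups overlapped, and the difference of -0.48 ± 0.22 was not called (unadjusted p = 0.0464, adjusted p = 0.668). On the other probe set the signal was 812, 698 and 655 in mdx hearts, against 749, 731 and 642 in control hearts, a difference of 0.03 ± 0.17 (adjusted p = 0.983). The lower values of Jun in older mdx hearts were thus seen on the brighter probe set and not on the other. At 8 weeks the brighter probe set was at 746, 514 and 917 in mdx hearts, against 762, 697 and 879 in control hearts (difference -0.13 ± 0.22, adjusted p = 0.801). The other was at 635, 854 and 687 in mdx hearts, against 489, 726 and 651 in control hearts (0.22 ± 0.17, adjusted p = 0.551). The groups overlapped on both, and the differences had opposite signs.

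Junb encodes an AP-1 subunit that can replace Jun or restrain it. Its signal at 10.5 months was 352, 469 and 476 in mdx hearts, against 343, 323 and 480.3 in control hearts (difference 0.17 ± 0.20, adjusted p = 0.880). At 8 weeks it was 252, 324 and 323 in mdx hearts, against 380.1, 249 and 298 in control hearts (-0.03 ± 0.20, adjusted p = 0.955). The groups overlapped at both ages. Atf3 encodes a stress-induced factor of the ATF and CREB family and was dim. Its signal at 10.5 months was 109, 128 and 126 in mdx hearts, against 101, 31.6 and 32.3 in control hearts. These groups did not overlap, but control replicate 1 came near the mdx arrays, and the difference of 0.90 ± 0.44 in the fit without the filter was not called (adjusted p = 0.808). At 8 weeks Atf3 was at 108, 16.3 and 166 in mdx hearts, against 64, 95.6 and 46.4 in control hearts, so that mdx arrays were both the highest and the lowest (0.16 ± 0.44, adjusted p = 0.888).

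Egr1, a zinc finger factor that binds GC-rich promoters, had the smallest p-value among members at 10.5 months. Its signal was 496, 601 and 625 in mdx hearts, against 352, 377 and 506 in control hearts. Control replicate 3 lay above mdx replicate 1, and the difference of 0.46 ± 0.17 (95% interval 0.10 to 0.82) had an unadjusted p of 0.0158 and an adjusted p of 0.631. At 8 weeks Egr1 was at 460.3, 523 and 544 in mdx hearts, against 501, 457 and 400.3 in control hearts (0.16 ± 0.17, adjusted p = 0.656), again with overlap.

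Nr4a1 encodes an orphan nuclear receptor induced by calcium and cyclic AMP signals. At 10.5 months it was at 629, 546 and 299.8 in mdx hearts, against 407, 425 and 424 in control hearts. The control arrays were close together and lay inside the range of the mdx arrays (0.16 ± 0.23, adjusted p = 0.905). Mdx replicate 3, an array of wide signal range, was the lowest of the 12, and without it the difference was 0.46 and was not called. At 8 weeks Nr4a1 was at 629, 516 and 666 in mdx hearts, against 796, 585 and 848 in control hearts (-0.28 ± 0.23, adjusted p = 0.573). Myc, a growth-promoting factor that works as a dimer with Max, was dim, at 142, 105 and 63.5 in mdx hearts, against 77, 43.1 and 113 in control hearts at 10.5 months. At 8 weeks it was at 122, 21.9 and 58.3 in mdx hearts, against 44.8, 82.5 and 57.9 in control hearts. Its groups overlapped at both ages, with differences of 0.31 ± 0.37 and -0.03 ± 0.37 (adjusted p = 0.954 and 0.982).

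Ier2 and Ier3 are small immediate early proteins, Ier2 a nuclear protein and Ier3 a regulator of cell survival, and Dusp1 is a phosphatase that switches off MAP kinases. Their values were low in young mdx hearts. Ier2 at 8 weeks was at 276, 248 and 317 in mdx hearts, against 502, 338 and 427 in control hearts, with no overlap. Its difference of -0.53 ± 0.16 (95% interval -0.88 to -0.18) had the smallest p-value of the members and was not called (unadjusted p = 0.00562, adjusted p = 0.109). Dusp1 at 8 weeks was at 1456, 1711 and 1510 in mdx hearts, against 1845, 2222 and 2197 in control hearts, also with no overlap (-0.41 ± 0.15, adjusted p = 0.166). Ier3 was at 835, 524 and 696 in mdx hearts, against 949, 1216 and 826 in control hearts, where mdx replicate 1 lay above control replicate 3 (-0.53 ± 0.19, adjusted p = 0.166). Of the 9 tested member probe sets 2 were thus below all control arrays at 8 weeks, a separation that 10.1% of all tested probe sets showed in this direction. The summed markers of 5 cell types also separated the same arrays. The summed signal of 6 neutrophil markers was 797 to 1331 in mdx hearts, against 1763 to 2109 in control hearts, with Camp and Cxcr2 below the filter. Of the 4 tested, S100a8 (-1.35 ± 0.46) and S100a9 (-1.30 ± 0.46) differed most. Ngp (0.00 ± 0.18) and Ltf (-0.26 ± 0.18) differed little, and 0 of the 4 were called. The summed signal of 5 smooth muscle markers was 5106 to 6268 in mdx hearts, against 8535 to 9563 in control hearts, with Cnn1 below the filter. That of 5 atrial markers was 11966 to 12964 in mdx hearts, against 4408 to 6400 in control hearts. Most of the atrial sum was Nppa (mean 10291 in mdx hearts and 4343 in control hearts). All 5 atrial genes had positive differences, with Myl7 at 0.93 ± 0.81 and Myl4 at 0.55 ± 0.72, and 0 were called. Sums were also higher in mdx hearts for 8 fibroblast markers (21933 to 24923, against 16985 to 20249 in control hearts) and 8 macrophage markers (7774 to 8045, against 6658 to 7747 in control hearts). The macrophage sums lay close together at their edges, and 5 of these 8 genes had positive differences and 3 negative ones. The smallest p among them was that of Cd163, which was lower in mdx hearts (-0.99 ± 0.27, adjusted p = 0.0789). Among the markers of these 5 cell types the smooth muscle genes Acta2 and Smtn were called, both lower in mdx hearts. The other 2 tested smooth muscle genes, Tagln (0.08 ± 0.14) and Myh11 (0.42 ± 0.32), had positive differences and were not called. Most of the smooth muscle sum was Acta2 (mean 3876 in mdx hearts and 6775 in control hearts). The part of these cell types in the values of Ier2, Ier3 and Dusp1 was not tested.

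At 10.5 months the groups overlapped for all 3 genes. Ier2 was at 402, 446 and 485 in mdx hearts, against 394, 428 and 414 in control hearts (0.10 ± 0.16, adjusted p = 0.920). Ier3 was at 907, 757 and 874 in mdx hearts, against 930.0, 816 and 912 in control hearts (-0.07 ± 0.19, adjusted p = 0.957). Dusp1 was at 2211, 1809 and 1725 in mdx hearts, against 2244, 2246 and 2131 in control hearts (-0.21 ± 0.15, adjusted p = 0.787). Mdx replicate 1 lay within the control range for Dusp1 and the other mdx arrays below it. At this age 0 of 9 tested member probe sets separated the groups, against 18.1% of all tested probe sets in either direction. Summed fibroblast markers were 22525 to 30697 in mdx hearts, against 20234 to 20848 in control hearts (7 genes positive, 1 negative). Those of smooth muscle were 5806 to 6752, against 4732 to 5140 (2 positive, 2 negative). Atrial sums overlapped, with 1 gene positive and 4 negative, and Myl7 was at 269.8, 151 and 284, against 3554, 2216 and 131. Of these genes 0 were called, and their part in the member values was not tested.

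**Figure D2:**
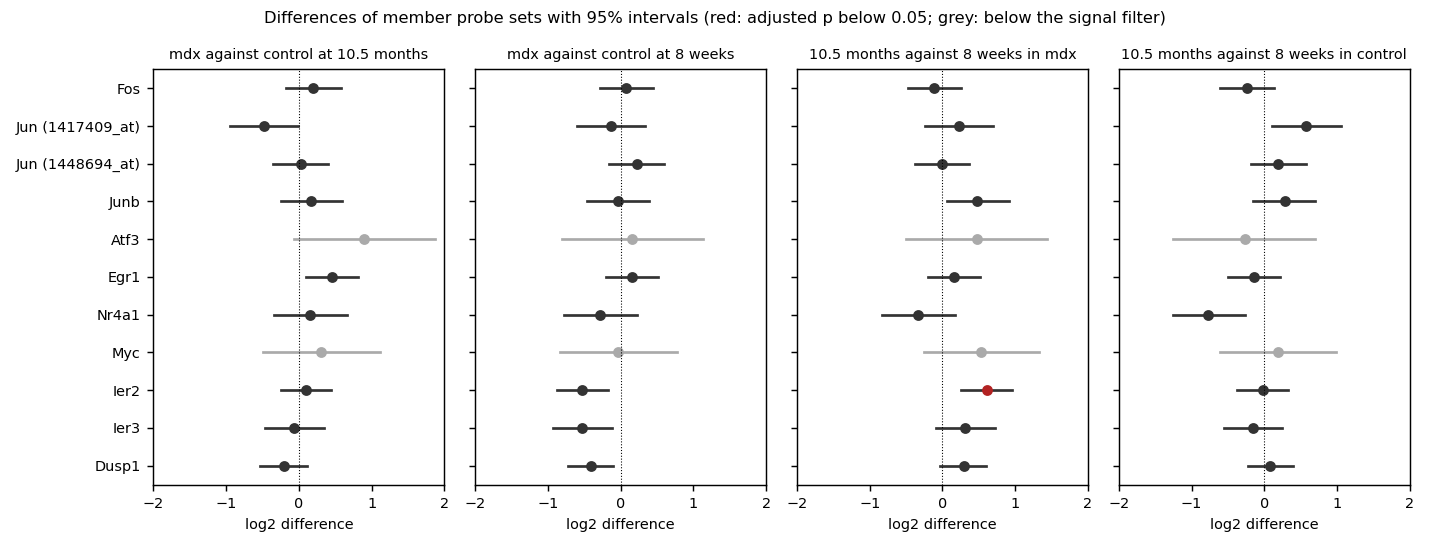
Log2 differences of the 11 member probe sets (points) with 95% intervals (lines) for mdx against control at each age and for age within each genotype. The single red point is Ier2 in the comparison of 10.5-month with 8-week mdx hearts, at 0.61.

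Between the ages, Ier2 was the single member called. It rose in mdx hearts, with a mean of 444 ± 41.6 at 10.5 months and 280.2 ± 34.7 at 8 weeks (SD, n = 3 arrays each), a difference of 0.61 ± 0.16 (1.53-fold, adjusted p = 0.0297). Its 3 arrays at 10.5 months lay above the 3 at 8 weeks. This comparison calls 11.4% of all tested probe sets, so 1 call among 9 is near the background. The call was lost when only the mdx arrays were fitted (adjusted p = 0.0811). It was also lost when either of 2 young mdx arrays, replicate 1 (adjusted p = 0.0626) or replicate 2 (0.0814), or either of 2 older ones, replicate 2 (0.0879) or replicate 3 (0.0888), was left out. Without the 4 arrays of wide signal range, which leaves 1 mdx array at 8 weeks, the difference was 0.38 (adjusted p = 0.202), and with that range as a block it was 0.56 (adjusted p = 0.0388).

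In control hearts Ier2 had 412 ± 17.2 at 10.5 months and 422 ± 82.5 at 8 weeks (SD, n = 3 each), a difference of -0.02 ± 0.16 (adjusted p = 0.976). The difference between the age effects of mdx and control hearts is the same quantity as the difference of the mdx effects above and was not called. The summed markers of neutrophils, fibroblasts and atrial myocytes overlapped between 10.5-month and 8-week mdx hearts. The summed neutrophil markers were at 591 to 806 at 10.5 months and 797 to 1331 at 8 weeks. That of 8 fibroblast markers was 22525 to 30697 at 10.5 months and 21933 to 24923 at 8 weeks. Of these 8 genes 5 had positive differences and 3 negative ones. Lum, Dpt and Mfap5 were called higher, 3 of the 8, against 11.4% of all tested probe sets called in either direction. The 5 atrial markers summed to 11815 to 18220 at 10.5 months and to 11966 to 12964 at 8 weeks, and 0 of them were called. Most of this sum was Nppa (mean 14630 at 10.5 months and 10291 at 8 weeks). Of the 5 atrial genes 4 had lower values at 10.5 months and 1 a higher value (median -0.90). Myl7 was at 269.8, 151 and 284 at 10.5 months, against 805, 895 and 567 at 8 weeks. Sln was at 25.5, 11.8 and 91.6, against 434, 393 and 281. The part of these markers in the Ier2 result was not tested.

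Of the other members with age, Dusp1 and Junb in mdx hearts also lay higher on all 3 arrays at 10.5 months than on all 3 at 8 weeks. Their differences were 0.29 ± 0.15 (adjusted p = 0.206) and 0.48 ± 0.20 (adjusted p = 0.122). With Ier2 these made 3 of 9 tested member probe sets, against 14.7% of all tested probe sets in this direction. In control hearts 0 of 9 were called with age, against 0.147% of all. Without overlap, 1 of the 9 was lower at 10.5 months (10.5% of all) and 1 was higher (12.2% of all). The lower one, Nr4a1, was at 407, 425 and 424 at 10.5 months and at 796, 585 and 848 at 8 weeks, a difference of -0.77 ± 0.23 (adjusted p = 0.218). With the wide signal range as a block this became -0.94 and was called (adjusted p = 0.0498), and without those arrays it was -0.92 (adjusted p = 0.0570). Smooth muscle markers summed to 4732 to 5140 in control hearts at 10.5 months and to 8535 to 9563 at 8 weeks, and Acta2 among them fell (-1.16 ± 0.14, adjusted p = 0.00505). Neutrophil markers summed to 489 to 997 at 10.5 months and to 1763 to 2109 at 8 weeks, with 0 called. Endothelial markers summed to 7540 to 8373 at 10.5 months and to 8474 to 10200 at 8 weeks. Of the 8 endothelial genes 6 had lower values at 10.5 months and 2 higher ones, with 0 called. The part of these cell types in the Nr4a1 values was not tested. The higher one, the brighter probe set of Jun, had a difference of 0.58 ± 0.22 (adjusted p = 0.317), while the other probe set of Jun gave 0.19 ± 0.17 (adjusted p = 0.702) with overlap.

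**Figure D3:**
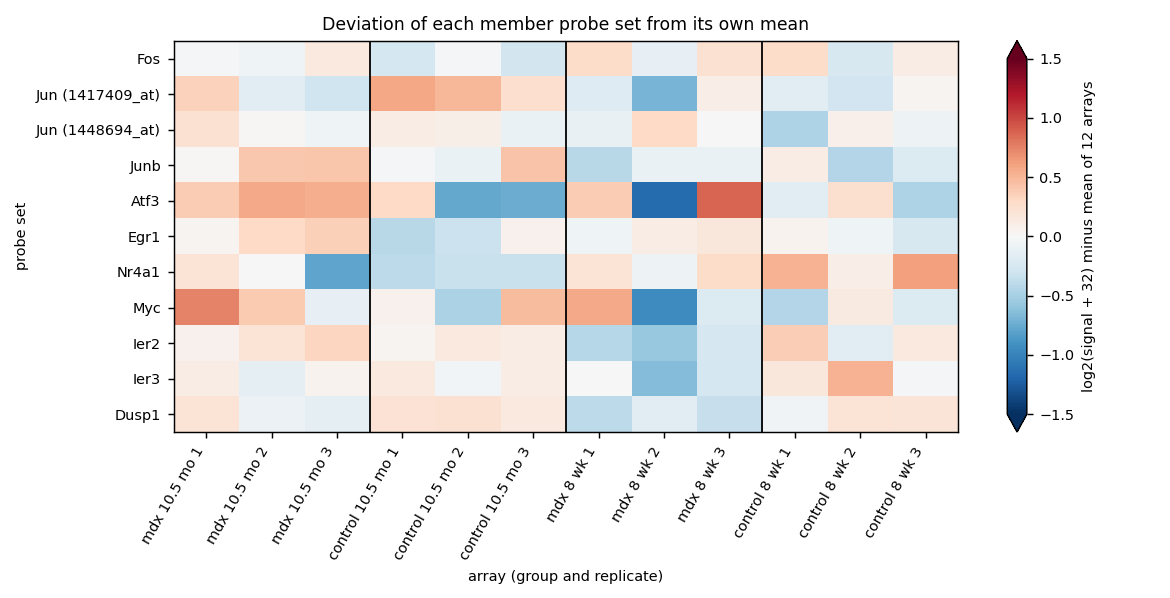
Deviation of log2(signal + 32) of each member probe set from its own mean over the 12 arrays, by array, with groups separated by black lines. Atf3 and Myc, the dim members, swing most, and no array is high or low for every member.

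Ranked by group mean, the order of the groups differed from gene to gene. Mdx hearts at 10.5 months were highest for Junb, Atf3, Egr1, Myc and Ier2, control hearts at 10.5 months for Dusp1 and for the brighter probe set of Jun, mdx hearts at 8 weeks for Fos and for the other probe set of Jun, and control hearts at 8 weeks for Nr4a1 and Ier3. Neighbouring groups in that order overlapped for all probe sets but those of Ier2 and Dusp1. Ier2 in control hearts at 10.5 months (394 to 428) lay above mdx hearts at 8 weeks (248 to 317), and Dusp1 in mdx hearts at 10.5 months (1725 to 2211) lay above mdx hearts at 8 weeks (1456 to 1711).

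Replicate arrays differed for these genes about as for others. The SD of log2 signal within groups had a median of 0.2 over the 9 tested member probe sets, from 0.135 for Dusp1 to 0.312 for Nr4a1, beside a median of 0.238 over all tested probe sets. The highest of the 12 arrays exceeded the lowest by 1.54-fold for Dusp1, 1.6-fold for Fos and 2.83-fold for Nr4a1, the widest among those tested. It did so by 6.5-fold for Myc and 10.2-fold for Atf3, whose low signals lie near or under the offset of 32.

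The genes did not move as one across arrays. Over the 28 pairs of the 8 tested genes, the correlation of log2 signal over 12 arrays had a median of 0.02, from -0.66 for Fos with Dusp1 to 0.62 for Junb with Ier2. The median over all pairs of tested genes was 0.01. A correlation of at least 0.5 was seen in 4 pairs (14.3%), beside 10% of all pairs. With group means taken out, the median was -0.01 and Fos with Ier2 (0.86) and Junb with Egr1 (0.84) were highest, while Dusp1 with Ier2 was lowest (-0.75). These are descriptions over 12 arrays that share scaling and groups.

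**Figure D4:**
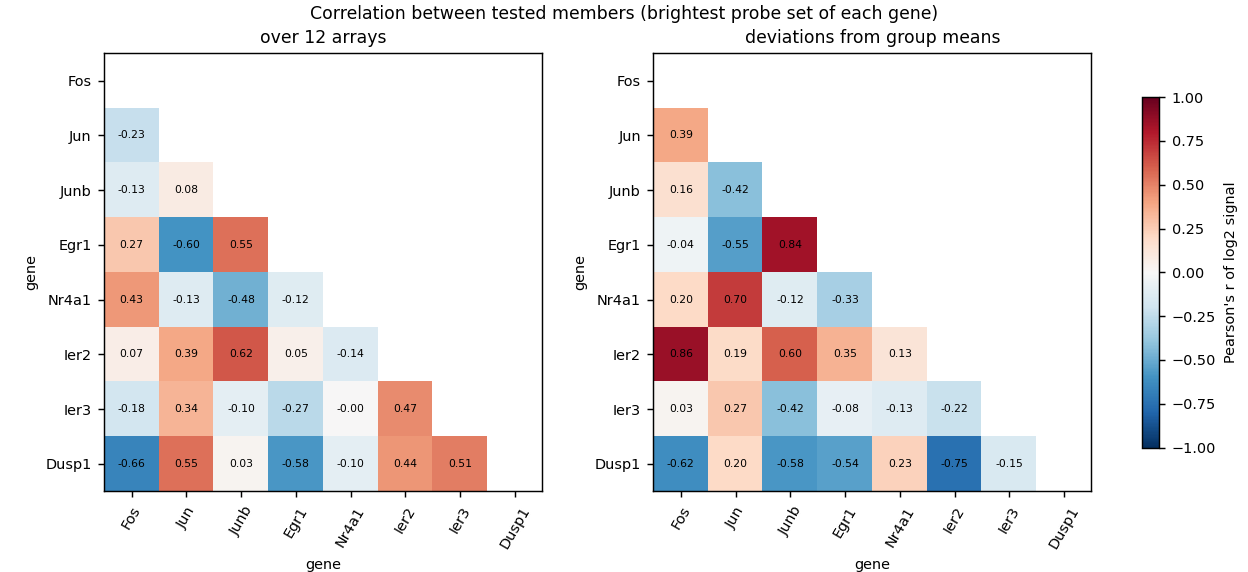
Pearson correlations of log2 signal between the 8 tested members, over the 12 arrays and after subtraction of group means. Positive and negative pairs are mixed, with 14 of 28 positive in each panel.

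The mean standardized signal of the 8 tested genes was lowest on mdx replicates 2 and 1 at 8 weeks (-0.98 and -0.46) and highest on control replicate 1 at 8 weeks (0.58). Both of the lowest arrays have the wide signal range. The other arrays of wide range were not as low (-0.16 on control replicate 2 at 8 weeks and 0.2 on mdx replicate 3 at 10.5 months). The genes whose pattern over the 12 arrays was most like this mean were Lsg1 (r = 0.919), Gfus (0.914), Slc35a2 (0.912), Mrrf (0.912), Rell1 (0.909) and Il17ra (0.908), chosen as the 6 highest among all tested genes. Lsg1, a GTPase of ribosome assembly, was at 299.7, 315 and 255 in mdx hearts, against 229.8, 297 and 282 in control hearts at 10.5 months. At 8 weeks it was at 184, 159.6 and 225 in mdx hearts, against 319.8, 215 and 330.0 in control hearts.

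Other genes of the response were taken from lists of related genes. Of 11 tested AP-1, EGR, NR4A and KLF factors outside the members, 0 were called between mdx and control hearts at 10.5 months (3 positive, median -0.10) and 0 at 8 weeks (7 positive, median 0.02). Nearest were Klf2, an endothelial shear stress factor, at 10.5 months (-0.49 ± 0.20, adjusted p = 0.666) and Nr4a2, a relative of Nr4a1, at 8 weeks (1.39 ± 0.45, adjusted p = 0.129). Nr4a2 fell with age in mdx hearts, to 101, 136 and 29.8 at 10.5 months, against 260.2, 316 and 501 at 8 weeks (-1.76 ± 0.45, adjusted p = 0.0255), while Ier2 rose. Nr4a2 was the 1 called of the 11 in this comparison, which calls 11.4% of all tested probe sets. In control hearts Nr4a2 was at 159.9, 112 and 163 at 10.5 months and at 71.3, 289.8 and 58.7 at 8 weeks, where the array of wide signal range stood apart.

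Of 22 tested other immediate early genes, Ccn2, a matrix-associated growth factor, was the single one called in mdx against control hearts at each age. Its signal was 2847, 2855 and 2780 in mdx hearts, against 1199, 1004 and 1003 in control hearts at 10.5 months (1.38 ± 0.18, adjusted p = 0.0121). At 8 weeks it was 1363, 1931 and 1541 in mdx hearts, against 1003, 668 and 1024 in control hearts (0.83 ± 0.18, adjusted p = 0.0392). Of all tested probe sets 0.0469% were called at 10.5 months and 2.3% at 8 weeks. Ccn2 was known from earlier results of these data. The list's medians were 0.09 at 10.5 months and 0.16 at 8 weeks. With age in mdx hearts, where 11.4% of all tested probe sets were called, 4 of the 22 rose, namely Ccn2 (0.81), the stress kinase gene Plk2 (1.01), the kinase gene Sgk1 (0.96) and the NF-kappaB inhibitor gene Tnfaip3 (0.93), and the kinase gene Pim1 fell by 0.92. In control hearts, where 0.147% of all were called, 0 of the 22 were called with age, and the difference between the genotypes' age effects was called for 0 of the 22.

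Among 13 tested feedback inhibitors, which include other dual-specificity phosphatases, Sprouty proteins and mRNA-destabilizing zinc finger proteins, 0 were called between mdx and control hearts at either age. Their medians were -0.18 at 10.5 months (3 positive) and 0.06 at 8 weeks (7 positive). Dusp14 fell with age in mdx hearts, at 76.2, 92 and 86.9 at 10.5 months, against 194, 161 and 207 at 8 weeks (-0.90 ± 0.15, adjusted p = 0.00460), while Dusp1 did not pass. Dusp14 was the 1 called of the 13 with age in mdx hearts, against 11.4% of all tested probe sets. Of 16 tested upstream kinases and SRF, ETS and CREB factors, 0 were called in these comparisons, with medians of -0.10 at 10.5 months and -0.09 at 8 weeks. Nearest were the p38 kinase gene Mapk14 at 10.5 months (-0.44 ± 0.16, adjusted p = 0.631) and Creb1 at 8 weeks (0.66 ± 0.23, adjusted p = 0.156). Of 6 tested relatives and partners of Myc, 0 were called between mdx and control hearts. With age in mdx hearts 1 of the 6 was called, against 11.4% of all tested probe sets. This was Mycn, which rose (0.52 ± 0.15, adjusted p = 0.0436).

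**Figure D5:**
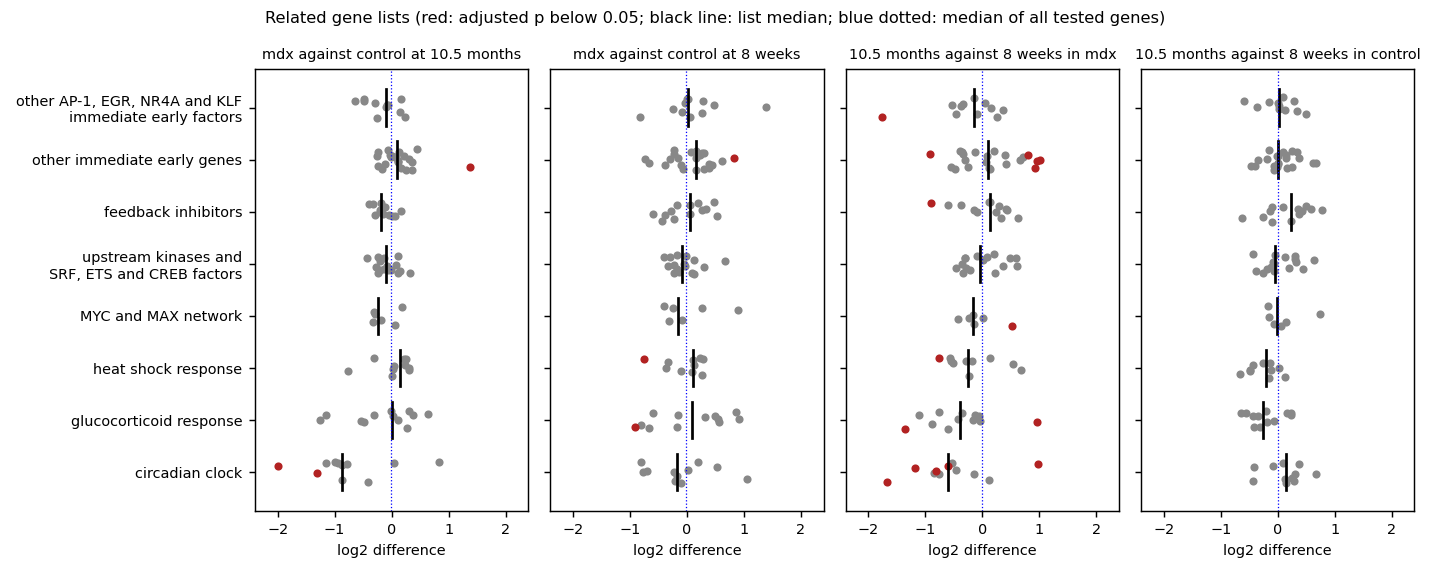
Log2 differences of the tested genes of 8 related lists (points, with red for adjusted p below 0.05), with list medians (black) and the median of all tested genes (blue dotted line). Ccn2 is the single red point among the immediate early lists in mdx against control hearts at 10.5 months and at 8 weeks.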

How the data were processed

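Total RNA of 12 mouse heart samples was hybridised by a standard Affymetrix protocol, per the labels. The deposited values are intensity on a linear scale, 1 per probe set and array, already scaled by the authors: the trimmed mean (2% off each end) was 1500.6 to 1500.9 on each array. Which software summarized the probes is not given in the sources used here. Every column belonged to a sample, and no arrays were identical. Replicates correlated by 0.948 to 0.982 in log2 signal. The number of arrays limits the precision.

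Groups and replicate numbers came from the titles. Gene names came from the platform annotation, updated to current symbols (20393 with 1 gene, 691 with several, 1606 with none). Signals were scaled again, to a trimmed mean of 500 per array, and limma 3.58.1 in R 4.3.3 (lmFit, eBayes, 1 mean per group, 8 residual degrees of freedom) was run on log2(signal + 32) of the 14932 probe sets with a mean of at least 100, leaving out 64 control probe sets. Such differences understate the change of dim genes. In gene lists the brightest probe set stood for its gene. The test was checked on simulated data.

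Named genes are all members, and from each list those called or else the 1 with the smallest p, plus Dmd and the markers. Members and lists were chosen with earlier results of these data known. Same-numbered arrays were not paired: their deviations from group means correlated by -0.13 to 0.13. Alternatives were quantile normalization, other offsets, no filter, blocks, other priors, fewer arrays and averaging the probe sets of each gene. Leaving out all arrays of wide signal range was added after seeing the data.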

Additional observations from a re-analysis of the deposited data

How the results depend on the processing

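No member was called in mdx against control hearts under the 21 alternatives run at each age, or in the difference of those effects under 20. For age in mdx hearts the call of Ier2 held in 15 of 21 (0.38 to 0.69, adjusted p 0.0152 to 0.202), and 0 members were called with only the mdx arrays fitted or without the arrays of wide signal range; leaving out 1 array gave 0 to 1. For age in control hearts 1 member (Nr4a1) was called with the wide range as a block.

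The number of probe sets called moved more. Without 1 array it ran from 42 to 308 for mdx at 8 weeks (main 343), from 1 to 12 for mdx at 10.5 months (main 7), from 0 to 31 for the difference of mdx effects (main 23), from 7 to 35 for age in control hearts (main 22) and from 598 to 1883 for age in mdx hearts (main 1706). The lowest counts came without control replicate 3 at 8 weeks (42 and 0), control replicate 1 or 2 at 10.5 months (1 each), control replicate 1 at 8 weeks (7) and mdx replicate 2 at 10.5 months (598). The replicate block gave 176, 3 and 10 for mdx at 8 weeks, mdx at 10.5 months and their difference, and changed no member's call. Other priors gave 11 for mdx at 10.5 months and 59 for age in control hearts. Fitting only the arrays compared gave 23 for mdx at 8 weeks, 7 for age in control and 565 for age in mdx hearts. Averaging probe sets gave 193 genes at 8 weeks and 4 at 10.5 months. Without the arrays of wide signal range the counts were 3 for mdx at 10.5 months, 110 for the difference, 12 for age in control and 727 for age in mdx hearts. The cause was not tested.

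Signs turned for uncalled members only. For mdx at 8 weeks, leaving out 1 array gave -0.07 to 0.20 for Fos, -0.31 to 0.09 for the brighter Jun probe set, -0.16 to 0.11 for Junb, -0.26 to 0.75 for Atf3 and -0.41 to 0.35 for Myc. Myc was also at 0.19 with a floor of 64 and 0.12 without the wide arrays, Junb at 0.01 with the wide range as a block, and the brighter Jun probe set at 0.16 without the wide arrays, with 0.04 for the mean of both Jun probe sets. For mdx at 10.5 months the ranges were -0.06 to 0.09 for the other Jun probe set, -0.04 to 0.46 for Nr4a1 and -0.12 to 0.01 for Ier3, and that Jun probe set was at -0.0022 with the wide range as a block. For the difference of mdx effects Myc ran from -0.04 to 0.72, and Atf3 was at -0.31 without the wide arrays. For age in control hearts Myc ran from -0.03 to 0.44, Ier2 from -0.16 to 0.11 and Dusp1 from -0.002 to 0.13, and Atf3 was at 0.03 with a floor of 64. For age in mdx hearts the other Jun probe set ran from -0.09 to 0.12 and Atf3 from -0.13 to 0.89. Fos was at 0.01 after quantile normalization, the other Jun probe set at 0.03 with the wide range as a block and 0.13 without the wide arrays, the brighter Jun probe set at -0.0015 and Atf3 at -0.40 without the wide arrays. Signal near the offset limits Atf3 and Myc.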

Other observations

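Genes that respond to heat or unfolded protein, and to glucocorticoids, also bear on acute stress. Of 10 tested heat shock genes 0 were called in mdx against control hearts at 10.5 months (median 0.14). At 8 weeks 6 of the 10 were positive and 4 negative (median 0.10), and 1 of the 10 fell, against 2.3% of all tested probe sets called. This was Hsph1, a chaperone of the HSP110 family, at 499.9, 570 and 523 in mdx hearts, against 806, 784 and 1203 in control hearts (-0.75 ± 0.17, adjusted p = 0.0467). The 3 mdx arrays lay below the 3 control arrays. With age in mdx hearts 1 of the 10 was called, against 11.4% of all tested probe sets. This was Bag3, a co-chaperone of muscle, which fell to 3084, 3060 and 2182 at 10.5 months, against 6149, 5150 and 3173 at 8 weeks (-0.76 ± 0.22, adjusted p = 0.0424). The 2 high young arrays are both of wide signal range, and the other young array lay close to the older ones.

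Of 12 tested genes of the glucocorticoid response 0 were called at 10.5 months in mdx against control hearts (median 0.00), and nearest was the clock gene Per1 (-1.15 ± 0.30, adjusted p = 0.367). At 8 weeks 6 of the 12 were positive and 6 negative (median 0.08), and 1 of the 12 fell, against 2.3% of all tested probe sets called. This was the metabolic regulator Klf15, at 369, 309 and 445 in mdx hearts, against 885, 666 and 642 in control hearts (-0.91 ± 0.20, adjusted p = 0.0383). With age 11 of the 12 had negative values in mdx hearts (median -0.39) and 9 of the 12 in control hearts (median -0.26, 0 called), while 49.2% and 50.9% of all tested genes had positive ones. In mdx hearts, where 11.4% of all tested probe sets were called, 1 was called lower (Zbtb16, -1.35 ± 0.38, adjusted p = 0.0400) and 1 higher (Sgk1, 0.96 ± 0.27, adjusted p = 0.0380). Of 11 tested circadian clock genes 2 fell in mdx against control hearts at 10.5 months, Dbp (-2.00 ± 0.28) and Tef (-1.31 ± 0.20), against 0.0469% of all tested probe sets called, and 0 were called at 8 weeks, against 2.3% of all. With age in mdx hearts 4 of the 11 fell, namely Tef (-1.18 ± 0.20), Hlf (-0.61 ± 0.16), Nr1d1 (-0.82 ± 0.20) and Cry2 (-1.67 ± 0.36), and Arntl rose (0.98 ± 0.22). With age in control hearts 0 of the 11 were called. The labels do not give the time of day of collection, and its part in these clock values was not tested.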
